A study of Mus musculus with 8 samples.

Results

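The genes described here encode the nuclear share of the mitochondrial respiratory chain and ATP synthase. Members were the RNA features whose symbol begins with Nduf, Uqcr or Atp5, with Sdh followed by a to d, or with Cox followed by 4 to 8, and that held 50 or more unique molecular identifiers (UMIs, tags that mark single captured RNA molecules) over the 4 RNA matrices. Of 98 symbols that matched, 92 met that minimum, out of 32285 RNA features in all. The 92 members were 46 of complex I, 8 of complex II, 8 of complex III, 13 of complex IV and 17 of complex V. Left out were Ndufa4l2 and Cox8b and Cox8c at 0 UMIs, Cox7b2 at 1, Cox4i2 at 3 and Cox6a2 at 39. The members nearest the minimum were Cox6b2 with 91 UMIs and Cox7a1 with 102.

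The study profiled conventional CD4 T cells from mice with experimental autoimmune encephalomyelitis (EAE), an induced autoimmune inflammation of the central nervous system that is used as a model of multiple sclerosis. All animals carried the Foxp3-Cre-YFP allele, which marks regulatory T cells with a yellow fluorescent protein so that they can be gated out. Brain without its meninges and spinal cord were taken 14 days after immunization, named the acute phase, and 50 days after it, named the chronic phase. T cells that were CD44+, TCRβ+, CD11b- and free of the Foxp3 reporter were sorted, stained with barcoded antibodies to CD69, P2X7 and CXCR6, and sequenced as single cells, with 1 RNA library for each tissue and day. The sex, age and number of mice per library, and whether a library pooled animals, are not given in the sources used here.

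The respiratory chain passes electrons from NADH (complex I) and succinate (complex II) through coenzyme Q to complex III, then through cytochrome c to complex IV, which reduces oxygen. Complexes I, III and IV pump protons across the inner mitochondrial membrane, and complex V, the ATP synthase, uses the returning protons to make ATP. Complexes I, III, IV and V combine subunits from nuclear genes with subunits that the mitochondrial genome encodes, the mt- genes, whereas complex II is entirely nuclear. Resting and memory T cells rely largely on oxidative phosphorylation, while activated effector T cells add a high rate of glycolysis and enlarge their mitochondria as they divide.

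Promoters of 5 members are shown that differ between days below and were picked to hold different sequences known from promoters of this pathway. Atp5md, Ndufa8, Sdhd and Cox5a each had the highest or lowest day ratio among the more abundant members of their complex in brain or spinal cord. Atp5k was not at such an end but was called higher at day 50 in brain. Each is the 250 bases before the start that the RefSeq promoter table lists in mouse build GRCm38.p6, printed 5′ to 3′ on the strand of the gene. The positions are chr19:47090648-47090897 for Atp5md (minus strand), chr9:57520982-57521231 for Cox5a (plus strand), chr5:108434400-108434649 for Atp5k (minus strand), chr2:36049339-36049588 for Ndufa8 (minus strand) and chr9:50603850-50604099 for Sdhd (minus strand). For Cox5a the listed start lies inside the span that RefSeq gives the gene, chr9:57517328-57532427, so this window is not upstream of the whole gene. Capitals mark exact matches to the motifs named after the sequences.
Atp5md: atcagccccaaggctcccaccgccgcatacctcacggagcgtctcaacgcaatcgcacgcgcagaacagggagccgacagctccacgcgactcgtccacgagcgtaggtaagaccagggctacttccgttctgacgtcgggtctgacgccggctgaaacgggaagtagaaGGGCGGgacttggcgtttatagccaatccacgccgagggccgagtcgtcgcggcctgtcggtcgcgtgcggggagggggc
Cox5a: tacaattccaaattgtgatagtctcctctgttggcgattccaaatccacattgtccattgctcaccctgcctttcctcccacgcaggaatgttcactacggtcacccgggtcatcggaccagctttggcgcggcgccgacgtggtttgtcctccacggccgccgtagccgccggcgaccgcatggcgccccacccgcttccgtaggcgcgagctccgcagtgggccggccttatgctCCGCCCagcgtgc
Atp5k: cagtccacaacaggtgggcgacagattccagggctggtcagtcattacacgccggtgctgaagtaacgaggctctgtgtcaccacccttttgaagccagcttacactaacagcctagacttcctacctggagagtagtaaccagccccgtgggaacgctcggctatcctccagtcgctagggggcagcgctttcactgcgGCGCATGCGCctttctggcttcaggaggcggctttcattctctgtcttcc
Ndufa8: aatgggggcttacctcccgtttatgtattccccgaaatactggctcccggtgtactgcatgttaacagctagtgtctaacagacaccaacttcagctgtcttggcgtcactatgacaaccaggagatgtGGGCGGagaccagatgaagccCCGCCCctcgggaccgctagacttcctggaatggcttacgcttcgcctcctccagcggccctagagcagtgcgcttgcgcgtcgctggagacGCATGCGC
Sdhd: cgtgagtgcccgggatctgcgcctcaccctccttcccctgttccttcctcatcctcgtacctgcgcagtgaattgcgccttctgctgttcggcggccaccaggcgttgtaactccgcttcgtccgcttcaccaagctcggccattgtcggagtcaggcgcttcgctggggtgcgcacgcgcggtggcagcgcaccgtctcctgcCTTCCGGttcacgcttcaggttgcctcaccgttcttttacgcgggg

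The capitals in Atp5k are overlapping matches to the NRF1 motif (GCATGCGC on either strand) that start 50 and 48 bases before the gene start. NRF1 is a transcription factor long tied to nuclear respiratory genes. In Ndufa8 the capitals are an NRF1 match 8 bases before the start and Sp1 matches (GGGCGG on either strand) at 121 and 100 bases. Sdhd holds an ETS match (CCGGAAG on either strand, the core read by GABP) at 46 bases, and Atp5md and Cox5a hold Sp1 matches 80 and 13 bases before their listed starts. Of the 92 members, 79 had a promoter in the RefSeq table. The NRF1 motif was in 9 of these 79 (Atp5g2, Atp5k, Atp5l, Cox6a1, Ndufa11, Ndufa6, Ndufa8, Ndufaf4 and Sdhb), or 11.4%, against 2.32% of 27025 mouse promoters and 4.87% of the 9038 promoters of genes with 50 or more UMIs here. The ETS motif was in 15 members (18.99%, against 7.05% of all promoters and 15.5% of those detected here), and the Sp1 motif in 34 (43.0%, against 32.9% and 59.6%). The ERR motif TCAAGGTCA was in 1 member, Atp5g3 (1.27%, against 0.37% and 0.25%), and the YY1 motif AAGATGGCG was in 0 members (0.61% and 1.35%), both searched on either strand. These letter matches describe the windows and do not show binding.

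The kept cells, with 500 or more genes and at most 10% mt- UMIs, numbered 10313 and 348 from brain on days 14 and 50, and 9270 and 1620 from spinal cord on the same days. They held 47272714, 1177903, 50710551 and 6078142 RNA UMIs in the same order, with medians of 3014.5 to 4921 UMIs per cell, so values from brain at the later day have the widest counting intervals. At most 34 cell barcodes were shared between any pair of libraries. Defining T cell genes were present in every library, with the summed CD4 T cell marker list at 5700 to 6154 counts per 1000000 UMIs (CPM, which does not correct for gene length, since a UMI marks a molecule), and Foxp3 at 0 to 2 UMIs. Ikzf2, also on the regulatory T cell list, went from 20.5 CPM at day 14 to 50.1 at day 50 in brain. In spinal cord Ikzf2 went from 11.5 to 32.9 CPM. Marker sums of other cell types stayed at or below 96.8 CPM, the dendritic cell list in the later brain library, against 10.9 to 15.0 CPM for that list in the other libraries. The B cell list summed to 27.4 to 50.9 CPM at day 14 and 73.9 to 91.1 at day 50, with Ms4a1 and Cd79a at 0 in both later libraries. Most of that sum was Ighm and Igkc. From day 14 to day 50 Igkc went from 18.0 to 26.3 CPM in brain and from 6.63 to 47.5 in spinal cord. Ighm went from 31.9 to 45.8 and from 19.9 to 42.9. The natural killer cell list summed to 8.26 to 9.16 CPM at day 14 and 36.4 to 46.7 at day 50, with Ncr1 and Klra8 at 0 throughout. Klrb1c of this list went the other way, from 2.73 to 0 CPM in brain and from 5.25 to 2.47 in spinal cord. Eomes made up most of the later sums, going from 6.43 to 46.7 CPM in brain and from 3.02 to 33.9 in spinal cord. Whether these sums come from other cell types, and what part such cells had in the day differences, was not tested. Each group is 1 library, so a day, a tissue and whatever else differed between libraries cannot be told apart, no test was run within a tissue or within a day, and all intervals of ratios between libraries cover counting error only. In summed counts, fewer cells of a type and less RNA per cell cannot be told apart. Below, acute and chronic stand for the libraries of day 14 and day 50, and cord for spinal cord.

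As a share of RNA UMIs, the summed nuclear respiratory level was nearly the same in all 4 libraries. The 92 members together held 2.53% of RNA UMIs in acute brain, 2.49% in chronic brain, 2.51% in acute cord and 2.48% in chronic cord. On the log2 scale the day 50 over day 14 ratio of this sum was -0.02 in brain (95% interval -0.04 to -0.01) and -0.02 in spinal cord (-0.02 to -0.01). The sign of so small a difference depended on scaling. It became 0.11 in brain and 0.17 in spinal cord when libraries were scaled by the median ratio over genes at 50 CPM or more. The median ratio of all features was -0.14 in brain and -0.33 in spinal cord under the plain library sum. Cytosolic ribosomal genes held 31.7% of that sum in acute brain, 34.2% in chronic brain, 28.7% in acute cord and 35.2% in chronic cord.

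Complexes I and V carried most of this RNA. Complex I members held 0.774%, 0.789%, 0.766% and 0.798% of UMIs in acute brain, chronic brain, acute cord and chronic cord, and complex V members 0.794%, 0.816%, 0.793% and 0.791%. Complex IV members held 0.657%, 0.608%, 0.650% and 0.597% in that order, lower at day 50 than at day 14 in both tissues, with log2 ratios of -0.11 (-0.15 to -0.08) and -0.12 (-0.14 to -0.11). Complex III held 0.240% to 0.255%. Complex II, the smallest share, held 0.0508%, 0.0379%, 0.0490% and 0.0453%, and its ratio was the lowest of the 5 complexes in brain at -0.42 (-0.56 to -0.29), against -0.12 (-0.17 to -0.06) in spinal cord, the tissue difference itself not being tested.

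**Figure D1:**
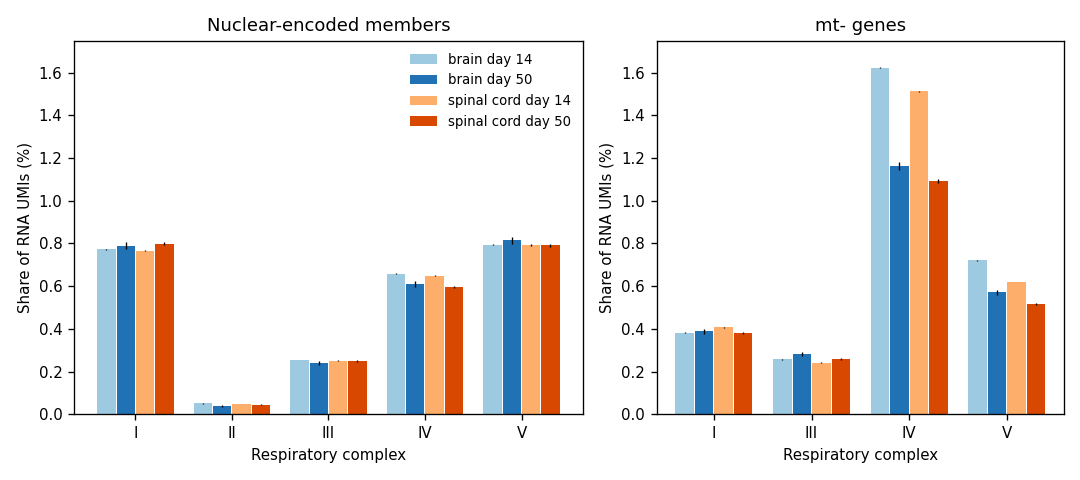
Share of RNA UMIs (%) held by the nuclear-encoded members of complexes I to V (left) and by the mt- genes of complexes I, III, IV and V (right), 1 bar per library, bars from 0, with 95% Poisson intervals as black lines. The nuclear bars of complexes I and V stay between 0.766% and 0.816%, while the mt- bars of complex IV are 1.62% and 1.51% at day 14 and 1.16% and 1.09% at day 50.

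The mt- genes did not keep pace with the nuclear members. Their 13 genes held 2.98% of UMIs in acute brain, 2.40% in chronic brain, 2.78% in acute cord and 2.25% in chronic cord, so both day 50 libraries lay below both day 14 libraries. The log2 ratio of the mt- sum at day 50 over day 14 was -0.31 (-0.33 to -0.30) in brain and -0.30 (-0.31 to -0.30) in spinal cord, and it stayed below 0 under the scalings of the library total and the cell filters tried. Relative to the median of all features it was -0.17 in brain and 0.03 in spinal cord. The mt- limit used to keep cells bounds this sum. With no limit the ratio was -0.31 in spinal cord, and with a limit of 5% it was -0.30 in brain.

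Put as nuclear over mt- UMIs, the ratio was 0.848 in acute brain, 1.04 in chronic brain, 0.902 in acute cord and 1.10 in chronic cord. By complex, the ratio was higher at day 50 in both tissues for complexes IV and V. For complex IV the ratio was 0.405, 0.523, 0.430 and 0.546 in that order, and for complex V 1.10, 1.43, 1.28 and 1.53. Complex III went the other way, at 0.993, 0.857, 1.04 and 0.955, and complex I was at 2.03, 2.03, 1.88 and 2.09, level in brain and higher at day 50 in cord. The mt- genes of complex IV moved the most as a group, with log2 ratios of -0.48 (-0.51 to -0.46) in brain and -0.47 (-0.48 to -0.46) in spinal cord, while their nuclear partners stood at -0.11 and -0.12. Relative to the median of all features the nuclear complex IV sum turned to 0.02 and 0.21, and the complex II sum was at -0.28 in brain and 0.22 in spinal cord.

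Within the nuclear set, single members differed between days far more than their sum. A member was called where its CPM differed at least 1.5-fold and its 95% interval excluded no difference. In brain, 8 members were higher and 7 lower at day 50 out of 92 tested, against a background of 5.16% higher and 5.7% lower over 12802 features. In spinal cord 3 were higher and 4 lower, against 6.76% higher and 23.9% lower over 13175 features. Over features at 50 CPM or more the shares were 6.86% and 7.09% in brain and 6.03% and 20.3% in spinal cord. The brain counts are close to the background share. In spinal cord 4 of 92 is below the share of all features called lower. With median-of-ratios scaling the split of calls was 12 higher and 0 lower in brain and 6 higher and 2 lower in spinal cord, against 7.33% and 3.31% of all features in brain and 9.65% and 15.5% in spinal cord, with 8 of the 15 and 5 of the 7 calls kept. The median log2 ratio of the members was -0.12 in brain, beside -0.14 for all features, and -0.09 in spinal cord, beside -0.33.

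The 4 libraries also allow 1 test of the day with tissue as a block, chosen after seeing the data. It takes the day difference as the same in both tissues, has 1 residual degree of freedom, and shares the spread across genes. With edgeR, 10 of 92 members rose at day 50 and 0 fell, with 3 lower at an unadjusted p under 0.05, against 5.15% of 12170 features higher and 4.84% lower. This fit scales libraries by TMM and not by the plain sum. Its median log2 fold changes, 0.05 for members and -0.05 for all features, lie above those of the CPM ratios. Without the tissue block 5 rose and 0 fell, and DESeq2 with the block called 4 higher and 0 lower. The 10 were the complex I genes Ndufa1, Ndufa3, Ndufa4, Ndufa5, Ndufaf8, Ndufb1-ps and Ndufb4, Uqcr11 of complex III, and Atp5k and Atp5md of complex V. Atp5md had a log2 fold change of 1.01 ± 0.22 (SE, edgeR adjusted p = 0.00016), Ndufa5 of 0.89 ± 0.20 (adjusted p = 0.000279) and Ndufa3 of 0.84 ± 0.21 (adjusted p = 0.00163). Cox5a at -0.51 ± 0.23 (adjusted p = 0.15) and Cox4i1 at -0.45 ± 0.24 (adjusted p = 0.275) did not pass. Of the 13 mt- genes, mt-Atp8 (1.61 ± 0.20, adjusted p = 1.72e-13) and mt-Nd4l (0.66 ± 0.22, adjusted p = 0.0312) rose and 0 fell, with 0 lower at an unadjusted p under 0.05 and 0 called lower by DESeq2.

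In brain, the 4 complex I members called higher at day 50 were accessory subunits, which surround the catalytic core. Ndufa3 was at 197 CPM in acute brain, 368 in chronic brain, 198 in acute cord and 269.8 in chronic cord. The 2 day 14 values nearly coincide and both day 50 values lie above them, with log2 ratios of 0.91 (0.76 to 1.05) in brain and 0.44 (0.37 to 0.52) in spinal cord. Ndufa5 was at 94.9, 176, 97.1 and 143 CPM in the same order, again with both day 50 libraries on top, with ratios of 0.89 (0.68 to 1.09) and 0.56 (0.45 to 0.66). Ndufb1-ps, which RefSeq lists as protein coding although its symbol reads as a pseudogene, was at 338, 539.9, 352 and 427 CPM. Ndufa1, an X-linked accessory subunit, was at 199, 309, 202 and 244 CPM. Both were called in brain, with ratios of 0.68 and 0.64, and were also higher at day 50 in spinal cord, with 0.28 and 0.27, short of the fold rule.

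Ndufa4 is placed in complex I by its name, though it is now known as a subunit of complex IV. It was at 349 CPM in acute brain, 408 in chronic brain, 284 in acute cord and 471 in chronic cord. The day 50 libraries were the 2 highest, and the ratio was 0.23 (0.09 to 0.36) in brain and 0.73 (0.67 to 0.79) in spinal cord, where it was called. Ndufaf8, an assembly factor of complex I, was at 66.0, 91.7, 62.8 and 100.2 CPM, called in spinal cord at 0.67 (0.55 to 0.80) and at 0.47 (0.18 to 0.75) in brain. Ndufa13, the most abundant complex I member by UMIs, was at 485, 481, 495 and 520.4 CPM. Ndufb4, an accessory subunit just under the fold rule in spinal cord, was at 128, 169.8, 132 and 197 CPM.

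Other complex I members were lower at day 50. Ndufa8, an accessory subunit of the intermembrane space, was at 172, 109, 169 and 137 CPM in acute brain, chronic brain, acute cord and chronic cord, with ratios of -0.66 (-0.93 to -0.41) and -0.30 (-0.40 to -0.20). Ndufa10 was at 108, 68.8, 122 and 94.1 CPM, with -0.66 (-0.99 to -0.34) and -0.38 (-0.50 to -0.25). In both genes the 2 day 50 libraries were the lowest and only the brain ratio was called. Ndufs1, the largest of the iron-sulfur core subunits, was at 19.9, 12.7, 27.7 and 16.1 CPM, called in spinal cord at -0.78 (-1.09 to -0.48). The assembly factor Ndufaf1 was at 12.9, 8.49, 17.4 and 11.5 CPM, also called in spinal cord, at -0.59 (-0.97 to -0.24). In brain Ndufs1 and Ndufaf1 had 15 and 10 UMIs at day 50, too few for their intervals to exclude 0. Ndufa11 had the lowest spinal cord ratio in complex I among members at 50 CPM or more, -0.40 (-0.49 to -0.31), and was not called.

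In complex II the 4 catalytic and anchor subunits all had ratios below 0 in brain, from -0.33 to -0.59. Sdha, the flavoprotein that oxidises succinate, was at 54.5, 43.3, 63.3 and 51.8 CPM in acute brain, chronic brain, acute cord and chronic cord. Sdhb, the iron-sulfur subunit, was at 156, 119, 154 and 159.9 CPM, low only in chronic brain. The membrane anchors Sdhc and Sdhd were at 39.3, 26.3, 34.8 and 27.5 CPM and at 63.8, 42.4, 61.0 and 55.8 CPM. Sdhd was the only one of the 4 called, in brain at -0.59 (-1.02 to -0.19), a call lost under both other scalings (-0.45 and -0.54) and without cells of the proliferation class described below (-0.57). Among assembly factors, Sdhaf2, which attaches the flavin to Sdha, was at 31.9, 24.6, 44.6 and 24.0 CPM and was called in spinal cord at -0.89 (-1.14 to -0.65). Sdhaf1 was at 116, 79.8, 87.9 and 82.4 CPM, highest in acute brain.

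In complex III no member was called by the 1.5-fold rule between days. Uqcrh, the hinge protein that helps bind cytochrome c, was the most abundant by UMIs at 1095, 915, 1070.5 and 940.1 CPM, lower at day 50 in both tissues. Uqcr11, a small accessory subunit, had the highest ratios, at 175, 236, 177 and 232 CPM, which gives 0.43 (0.25 to 0.60) in brain and 0.39 (0.31 to 0.47) in spinal cord. The core proteins Uqcrc1 and Uqcrc2 were lower at day 50, at 69.1, 61.1, 85.8 and 69.8 CPM and at 107, 82.3, 105 and 86.5 CPM, and the brain interval of Uqcrc1 (-0.54 to 0.16) includes 0.

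Complex IV held 2 abundant members that were low at day 50 in both tissues. Cox5a, a subunit on the matrix side of cytochrome c oxidase, was at 609 CPM in acute brain, 393 in chronic brain, 668 in acute cord and 407 in chronic cord. Both day 50 libraries lay well below both day 14 libraries, with ratios of -0.63 (-0.77 to -0.50) in brain and -0.72 (-0.78 to -0.66) in spinal cord, called in both. Cox4i1, which binds nucleotides and sets the activity of the enzyme, was at 1094, 694, 1103 and 744 CPM, again with no overlap between days. Its ratio was -0.66 (-0.76 to -0.56) in brain, where it was called, and -0.57 (-0.61 to -0.53) in spinal cord, just short of 1.5-fold. Under median-of-ratios scaling these calls were lost, with Cox5a at -0.49 in brain and -0.52 in spinal cord and Cox4i1 at -0.52 in brain, and Cox5a was at -0.58 in spinal cord with ribosomal and mt- genes left out of the total. Cox5b, which shares the name but not the sequence family of Cox5a, was at 531, 519, 519 and 508 CPM, level across the libraries.

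Cox7c, a small subunit of complex IV, was at 661, 930.5, 688 and 793 CPM, the highest ratio of the complex at 50 CPM or more, 0.49 (0.41 to 0.58) in brain and 0.21 (0.16 to 0.25) in spinal cord. Cox8a, one of the 3 most abundant members of the complex, was at 1056, 981, 977 and 1038 CPM. Cox7a2l, which links complexes III and IV into supercomplexes, was at 491, 327, 443 and 374 CPM and was called lower in brain at -0.59 (-0.74 to -0.44).

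In complex V the highest ratio of any member at 50 CPM or more was that of Atp5md, a small membrane subunit of the ATP synthase. It was at 272 CPM in acute brain, 522 in chronic brain, 270.0 in acute cord and 453 in chronic cord. The 2 day 14 libraries were equal within their intervals and both day 50 libraries lay far above, with ratios of 0.94 (0.82 to 1.06) and 0.75 (0.69 to 0.81), called in both tissues. Atp5k, subunit e, which helps pair ATP synthases into dimers, was at 225, 352, 221 and 261 CPM and was called in brain at 0.65 (0.50 to 0.79). Atp5mpl, another small membrane subunit, was at 269.6, 412, 299.7 and 326 CPM and was called in brain at 0.61 (0.48 to 0.74). Atp5e, the epsilon subunit of the central stalk, was the most abundant of complex V at 933, 1306, 901 and 1123 CPM. Atp5f1, subunit b of the peripheral stalk, was at 390.4, 259.8, 380.0 and 318 CPM, called lower in brain at -0.59 (-0.76 to -0.42), and Atp5b, the catalytic beta subunit, was at 328, 292, 340.0 and 287 CPM. Atp5h, subunit d of the same stalk, was at 899, 762, 925 and 821 CPM. Atp5o, which ties the stalk to the head, had the lowest cord ratio of the complex, -0.36 (-0.44 to -0.27).

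**Figure D2:**
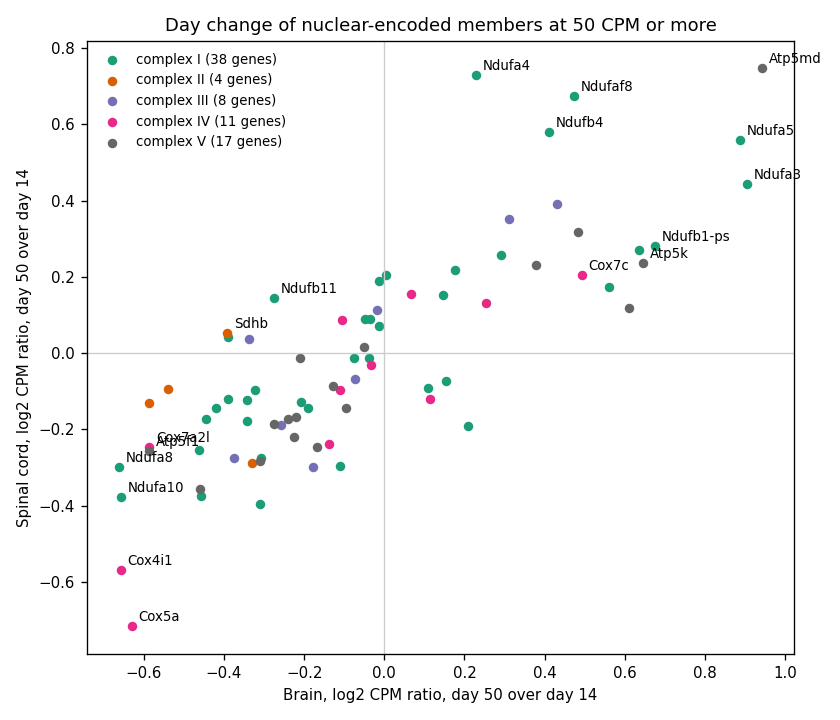
Each point is 1 nuclear-encoded member at 50 CPM or more (78 genes, coloured by complex), with its log2 CPM ratio of day 50 over day 14 in brain on the x axis and in spinal cord on the y axis. Atp5md stands at the upper right with 0.94 and 0.75, and Cox5a and Cox4i1 at the lower left with -0.63 and -0.72 and with -0.66 and -0.57.

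The day differences of members ran in parallel in the 2 tissues, whose ratios share no library. Over the 78 members at 50 CPM or more, 22 were higher at day 50 in both tissues, 41 were lower in both and 15 had opposite signs, so 80.8% had the same sign. Pearson's r across these genes was 0.81 and Spearman's rho 0.81. Over 2296 features of that level the share was 76.7%, r was 0.67 and rho 0.61, so a parallel between tissues was not particular to the respiratory chain. Genes are not independent replicates, and the points share the depth and composition of their libraries. With the low members included, all 92 gave r of 0.31 and rho of 0.68. The values spread more in brain (SD 0.40 over 78 genes) than in spinal cord (SD 0.28).

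Isoforms of muscle and testis were at trace level. The muscle form Cox7a1 had 44, 5, 49 and 4 UMIs in acute brain, chronic brain, acute cord and chronic cord, and the testis form Cox6b2 had 55, 3, 32 and 1. Cox7a1 met the fold rule in brain at 2.19 (0.50 to 3.52) on 5 UMIs in 5 cells. Their ubiquitous counterparts were plentiful: Cox7a2 was at 412, 431, 393 and 438 CPM, Cox6b1 at 485, 449, 477 and 446, and Cox6a1 at 177, 192, 173 and 159. Of the 3 genes that encode the same mature c subunit of the ATP synthase rotor, Atp5g2 was the most abundant in UMIs at 821, 709.7, 767 and 760.3 CPM, above Atp5g1 at 383, 351, 399 and 376 and Atp5g3 at 319, 273, 314 and 269.7.

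Other lists of mitochondrial and energy genes were counted by the same rule, beside all-feature shares of 5.16% higher and 5.7% lower in brain and 6.76% and 23.9% in spinal cord. Of 78 mitochondrial ribosome genes, 1 was higher and 6 lower at day 50 in brain and 0 higher and 8 lower in spinal cord. Of 14 genes of the tricarboxylic acid cycle, 0 were higher in either tissue and 3 and 2 were lower, among them citrate synthase Cs (-0.66 in brain and -0.75 in spinal cord). Of 18 glycolysis genes, 4 were higher and 2 lower in brain, and 1 was higher and 9 lower in spinal cord, with a median of -0.62 there. Pgk1 was called lower in both (-0.66 and -1.09), and Ldhb, the lactate dehydrogenase form of oxidative tissues, was called higher in both (1.05 and 2.05). Of 28 assembly and expression factors outside the member rule, 1 was higher and 1 lower in brain and 0 higher and 4 lower in spinal cord. Of 17 regulators of mitochondrial transcription and biogenesis, Ppargc1b was higher in both tissues (1.34 and 1.12, at 2.43 to 8.49 CPM) and Tfam, which packages mitochondrial DNA, was lower in brain (-0.66).

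Markers of division moved with the day. The 10 genes of a proliferation list had a median ratio of -1.30 in brain and -1.29 in spinal cord. When cells with UMIs of 3 or more of these genes were left out, an alternative chosen after seeing the data, 15 members were called in brain and 7 in spinal cord, as many as before. Of the calls made with all cells, 13 of 15 and 6 of 7 were kept, and Cox5a stood at -0.65 and -0.68.

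Among the mt- genes the day difference was uneven. In complex IV, mt-Co1 was at 6645, 4944, 5920.3 and 4661 CPM in acute brain, chronic brain, acute cord and chronic cord, mt-Co2 at 5110.5, 3699.8, 4810.4 and 3500.4, and mt-Co3 at 4474, 2988, 4396 and 2774. For each of these 3 catalytic core subunits both day 50 libraries lay below both day 14 libraries. mt-Co3 was called lower in spinal cord at -0.66 (-0.69 to -0.64) and was at -0.58 (-0.63 to -0.53) in brain. mt-Atp6, the proton channel subunit of complex V, was at 7159, 5526, 6136 and 5038 CPM. mt-Cytb, the only mt- gene of complex III, was at 2565, 2802, 2416 and 2603 CPM, slightly higher at day 50 in both tissues. Of the longer complex I genes, mt-Nd2 was at 798, 788, 775 and 747 CPM and mt-Nd4 at 1403, 1405, 1501 and 1478, level across days. mt-Nd1 was at 881, 715, 767 and 658 CPM and mt-Nd5 at 343, 309.9, 459 and 312, both lower at day 50.

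The shortest mt- genes had the highest ratios in brain. mt-Atp8 (204 bases, 43 of them shared with mt-Atp6) was at 49.2, 177, 59.0 and 124 CPM and was called higher in both tissues, at 1.85 (1.64 to 2.06) and 1.07 (0.95 to 1.18). mt-Nd4l (297 bases) was at 256, 447, 401 and 457 CPM and mt-Nd3 (348 bases) at 119, 186, 141 and 145, each called in brain only (0.81 and 0.64, against 0.19 and 0.03 in spinal cord). mt-Nd6, the gene of the set encoded on the other strand, was at 21.1, 30.6, 32.8 and 17.3 CPM and was called lower in spinal cord at -0.93 (-1.22 to -0.64). Across the 13 genes, Spearman's rho between gene length in RefSeq and the log2 ratio was -0.51 in brain and -0.34 in spinal cord, a description over overlapping genes that are cut from shared transcripts. Whether transcript length or the counting of overlapping mt- genes played a part was not tested.

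**Figure D3:**
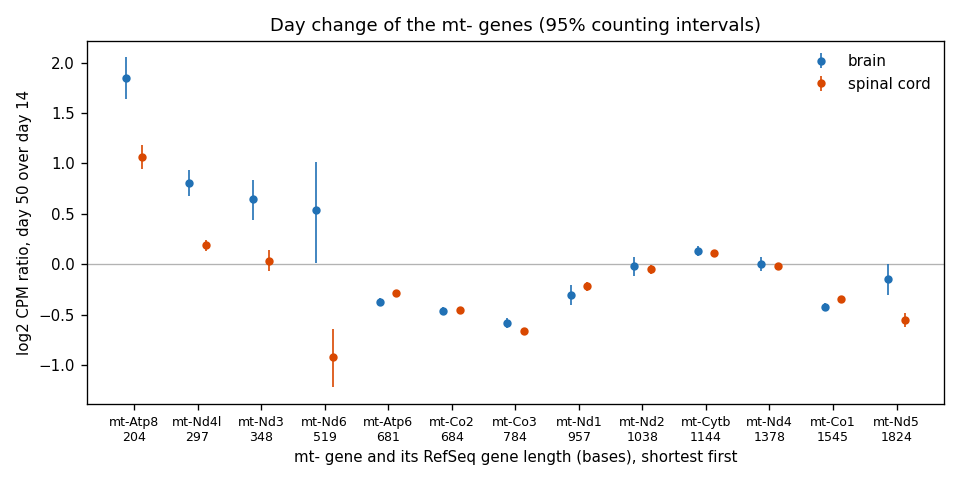
Log2 CPM ratio of day 50 over day 14 (y axis) for the 13 mt- genes ordered by gene length in bases (x axis), in brain and spinal cord, with 95% counting intervals. mt-Atp8, the shortest at 204 bases, has the highest ratios of 1.85 and 1.07, and mt-Co1, mt-Co2 and mt-Co3 lie below 0 in both tissues.

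Fewer members were called between the 2 tissues than between the 2 days. For all features this depended on the pairing. Between tissues at day 14, 2038 of 13868 were called higher and 507 lower, against 660 and 730 of 12802 between days in brain. Between days in spinal cord the counts were 891 and 3147 of 13175, and between tissues at day 50 they were 268 and 455 of 10309. Thus only day 14 against the brain days had more calls between tissues. At day 14, 0 members were higher and 1 was lower in spinal cord than in brain, against a background of 14.7% higher and 3.66% lower over 13868 features. Over 2439 features at 50 CPM or more, the level of most members, the shares were 7.3% and 2.21%. The 1 call was Cox6b2 (-0.88, with 32 against 55 UMIs), and it was lost without cells of the proliferation list. At day 50, 0 of 90 tested members were called in either direction, against 2.6% higher and 4.41% lower over 10309 features. At 50 CPM or more those shares were 0.972% and 3.52% of 2161 features. The median log2 ratio of the members was -0.01 at day 14, beside 0.20 for all features, and 0.06 at day 50, beside 0.04. Within the fold limit, Sdhaf1 was lower in acute cord (-0.40, interval -0.46 to -0.34) as was Ndufa4 (-0.29, -0.33 to -0.26), and Uqcrc1 was higher (0.31, 0.25 to 0.38). The other extremes of each complex lay between -0.15 (Cox7a2l) and 0.22 (Sdha). At day 50 Ndufa3 (-0.45) and Atp5k (-0.43) were lower in spinal cord and Ndufa10 (0.45) and Sdhb (0.43) higher, all with intervals that exclude 0. Of the 13 mt- genes, 2 were called higher in spinal cord at day 14 and 0 lower. They were mt-Nd4l (256 CPM in brain and 401 in spinal cord) and mt-Nd6 (21.1 and 32.8). At day 50, 0 were called higher and 1 lower, mt-Nd6 at -0.82 (30.6 and 17.3 CPM).

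Seen cell by cell, the nuclear level was even. With each cell thinned to 2000 UMIs, the median cell held 49, 48, 49 and 49 nuclear respiratory UMIs in acute brain, chronic brain, acute cord and chronic cord, from 9150, 250, 9128 and 1493 cells deep enough. The 10th to 90th percentiles ran from 35 to 64 in acute brain and from 37 to 62 in both spinal cord libraries. The median cell held 58, 45, 55 and 43 mt- UMIs in that order, so the median cell too was lower at day 50. Nuclear and mt- UMIs did not rise together across cells: Spearman's rho was -0.18, -0.06, -0.11 and -0.14. Nuclear and cytosolic ribosomal UMIs gave -0.365, -0.094, -0.284 and -0.243, so a negative rho was not particular to the mt- genes. Complexes I and V rose together weakly (rho 0.33, 0.33, 0.24 and 0.24), as did complexes IV and V (0.32, 0.25, 0.21 and 0.18). Cells of 1 library share its depth and a fixed total, counts are sparse, and these are descriptions.

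The genes outside the set whose 4 library levels were most like the summed members, out of 2218 ranked by the distance between their log2 levels after centring, were Gimap9, Bcl2a1b, Churc1, Jpt1 and S100a11. Gimap9 was at 117, 115, 119 and 118 CPM, as flat as the sum.

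Cells with signs of division held more nuclear respiratory RNA. Cells with a UMI of at least 3 of the 10 proliferation genes numbered 620 in acute brain and 408 in acute cord. A test with edgeR was run over both libraries, each compared with its own other cells. Like the day test, it has 1 residual degree of freedom and shares the spread across genes, so its small p-values rest on 2 libraries. The class is a cut on a count of detected genes and not a cell type. The members held 2.96% of UMIs in the class against 2.47% in other cells in brain, and 2.78% against 2.48% in spinal cord. The day 50 libraries had 5 and 15 such cells, at 3.55% against 2.45% and 3.26% against 2.46%, and did not enter the test. By edgeR with Benjamini-Hochberg adjustment, 53 of 92 members rose and 4 fell, against 19.5% of 12118 features higher and 16.8% lower. The median log2 fold change of the members was 0.25, beside -0.03 for all features. Cells of the class were also deeper, with medians of 8641 and 9333.5 UMIs against 3885 and 4842. When the other cells were matched to them 1 to 1 on UMIs, an alternative chosen after seeing the data, 47 of 90 members rose and 4 fell, the median was 0.21, and 50 of the 57 calls were kept.

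Members rose in every complex: 25 of 46 in complex I, 3 of 8 in II, 5 of 8 in III, 9 of 13 in IV and 11 of 17 in V. Cox5a was at 562 CPM in other cells and 932 in the class in brain, and at 642 and 966 in spinal cord. It was higher in both libraries, with a log2 fold change of 0.64 ± 0.06 (SE, n = 2 libraries, edgeR adjusted p = 1.25e-07). Ndufab1, the mitochondrial acyl carrier protein of complex I, went from 137 to 216 CPM and from 141 to 221 (0.64 ± 0.07, edgeR adjusted p = 5.14e-07). Sdhb went from 147 to 222 and from 148 to 223 CPM (0.58 ± 0.07, adjusted p = 1.75e-06), and Atp5b from 306 to 486 and from 329 to 471 (0.58 ± 0.07, adjusted p = 1.09e-06). In complex III, Uqcr10 and Uqcrb rose by 0.44 and 0.39. Atp5g1 rose by 0.29, a call that was lost in depth-matched cells (0.11, adjusted p = 0.19).

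The members that fell were 1 in each of complexes I to IV. Cox7a2l went from 509 to 362 CPM in brain and from 455 to 315 in spinal cord (log2 fold change -0.53 ± 0.07, edgeR adjusted p = 3.18e-06). Uqcrh went from 1128 to 862 and from 1095 to 796 CPM (-0.44 ± 0.06, adjusted p = 1.17e-05). Ndufa6 (-0.43) and the assembly factor Sdhaf1 (-0.31) also fell, and these 4 kept their calls against depth-matched cells. The mt- genes went the other way from most members: 0 rose and 7 fell of 13, led by mt-Nd5 (-0.40) and mt-Co1 (-0.38), and 4 fell against depth-matched cells. Among other lists, 56 of 78 mitochondrial ribosome genes rose and 3 fell, 7 of 14 genes of the tricarboxylic acid cycle rose and 1 fell, and 9 of 91 cytosolic ribosome genes rose while 44 fell.

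Surface protein classes were compared within each of the 4 libraries, between the upper and the lower tertile of cells by antibody count, with the library as a block. The cuts were set per library and differed in counts. In chronic brain the high classes began at 5, 3 and 7 counts for CD69, P2X7 and CXCR6, with low cells at up to 0, 0 and 1. In acute cord they began at 17, 17 and 32, with low cells at up to 6, 5 and 15. Ties made classes unequal, such as 4370 low and 3309 high cells for CD69 in acute brain. CD69 and CXCR6 are markers of tissue-resident T cells, and P2X7 is a receptor for extracellular ATP. In CD69-high cells 12 of 91 members rose and 2 fell by edgeR, against 10.6% of 10556 features higher and 10.3% lower. In CXCR6-high cells 9 of 91 rose and 1 fell, against 6.53% and 5.06% of 10389 features. In P2X7-high cells 1 of 90 rose and 0 fell, against 1.79% and 1.36% of 10515 features, with 6 members at an unadjusted p under 0.05 and 0 calls by DESeq2. The counts that rose are near these shares, and the counts that fell are below them for CD69 and CXCR6. The median log2 fold changes of the members were 0.09, 0.09 and 0.04 for CD69, CXCR6 and P2X7, beside -0.01, -0.00 and 0.01 for all features.

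High cells were deeper than low cells, and genes of division moved with them. In acute brain the CD69 classes had median UMIs of 5034 and 3318 and the CXCR6 classes 5005 and 2961. Of the 10 proliferation genes, 8 rose with CD69 and 6 with CXCR6. When tertiles were taken within quintiles of UMIs so that depth matched, 5 members rose and 4 fell with CD69, 3 rose and 2 fell with CXCR6, and 7 of 14 and 4 of 10 earlier calls were kept. With P2X7, 0 of 90 rose and 1 fell. The member medians then shrank to 0.0142 for CD69 and 0.0175 for CXCR6 and turned to -0.0305 for P2X7. All features were at -0.0029, -0.0041 and 0.0038 in that order. Without acute brain the calls numbered 5 for CD69 and 1 for CXCR6, without acute cord there were 6 for CD69, and without chronic cord there were 22 for CD69, 5 for P2X7 and 4 for CXCR6. P2X7 gave 0 calls without any one of the other 3 libraries.

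**Figure D4:**
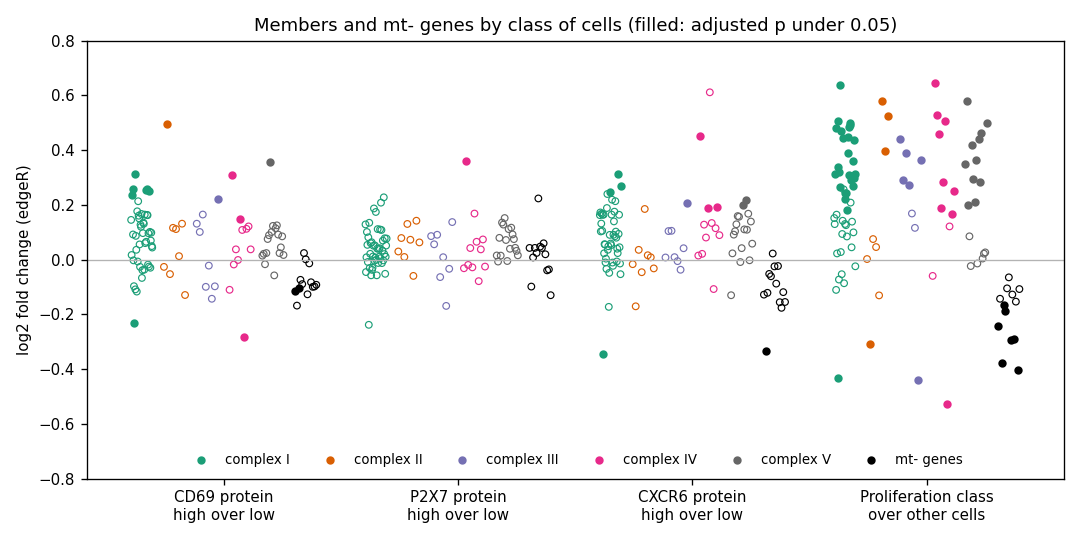
Log2 fold change from edgeR (y axis) of each member, coloured by complex, and each mt- gene (black) for the 4 class comparisons on the x axis, with filled points at an adjusted p under 0.05. Most proliferation points lie above 0 with 53 members called higher, whereas the antibody classes have 1 to 12 called higher, and 3 points beyond 0.8 (Cox7a1 for CD69 and proliferation, Cox6b2 for proliferation) are not drawn.

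Cox5a was called in all 4 class comparisons. For CXCR6 it was at 471 CPM in low and 669 in high cells in acute brain, at 292 and 461 in chronic brain, at 602 and 701 in acute cord, and at 334 and 476 in chronic cord. It was higher in high cells in 4 of 4 libraries (0.45 ± 0.07, SE, edgeR adjusted p = 0.000301), and the call held in depth-matched cells at 0.18 (adjusted p = 0.0292). For CD69 it rose by 0.31 ± 0.05 (adjusted p = 0.000143) and for P2X7 by 0.36 ± 0.09 (adjusted p = 0.0468), both higher in 4 of 4 libraries and both lost in depth-matched cells (0.11 and 0.14, adjusted p = 0.147 and 0.346). The CD69 and CXCR6 calls held without each library in turn, and the P2X7 call held only without chronic cord. In the lower and in the upper CXCR6 tertile the day 50 library lay below the day 14 library of its tissue.

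Ndufa4 went the opposite way. For CXCR6 it was at 403 CPM in low and 308 in high cells in acute brain, at 466 and 327 in chronic brain, at 339 and 258 in acute cord, and at 514 and 449.7 in chronic cord. It was lower in high cells in 4 of 4 libraries (-0.34 ± 0.06, edgeR adjusted p = 0.00116), and it fell with CD69 as well (-0.23 ± 0.06, adjusted p = 0.0082). Both calls held in depth-matched cells, at -0.38 and -0.28. The CXCR6 call was lost without acute brain (adjusted p = 0.0522), and the CD69 call without acute brain or without acute cord (adjusted p = 0.166 and 0.274).

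With CD69, the assembly factor Sdhaf1 showed the highest fold change among members above trace level. It was at 99.0 and 137 CPM in low and high cells in acute brain, 59.7 and 91.3 in chronic brain, 73.2 and 106 in acute cord, and 65.2 and 104 in chronic cord (0.50 ± 0.07, edgeR adjusted p = 2.42e-05). The call held in depth-matched cells at 0.54, and for CXCR6 its fold change was -0.17 (adjusted p = 0.167). Atp5g1, 1 of the 3 c subunit genes, rose with CD69 by 0.36 (adjusted p = 6.60e-05) and kept its call at 0.24 in depth-matched cells. Cox7a2l fell with CD69 (-0.28, edgeR adjusted p = 0.000918), a call kept in depth-matched cells at -0.24 and lost without acute cord (adjusted p = 0.0604). Uqcrq, Ndufs5 and Cox6c rose with both CD69 and CXCR6, by 0.22, 0.25 and 0.15 and by 0.21, 0.31 and 0.19, and these 6 calls were lost in depth-matched cells. Of the mt- genes, 2 fell with CD69 and 1 with CXCR6, against 0 and 1 in depth-matched cells. Glycolysis genes were called more often: 12 of 18 rose and 1 fell with CD69, and 11 rose and 1 fell with CXCR6. These glycolysis counts are from tertiles not matched for depth.

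**Figure D5:**
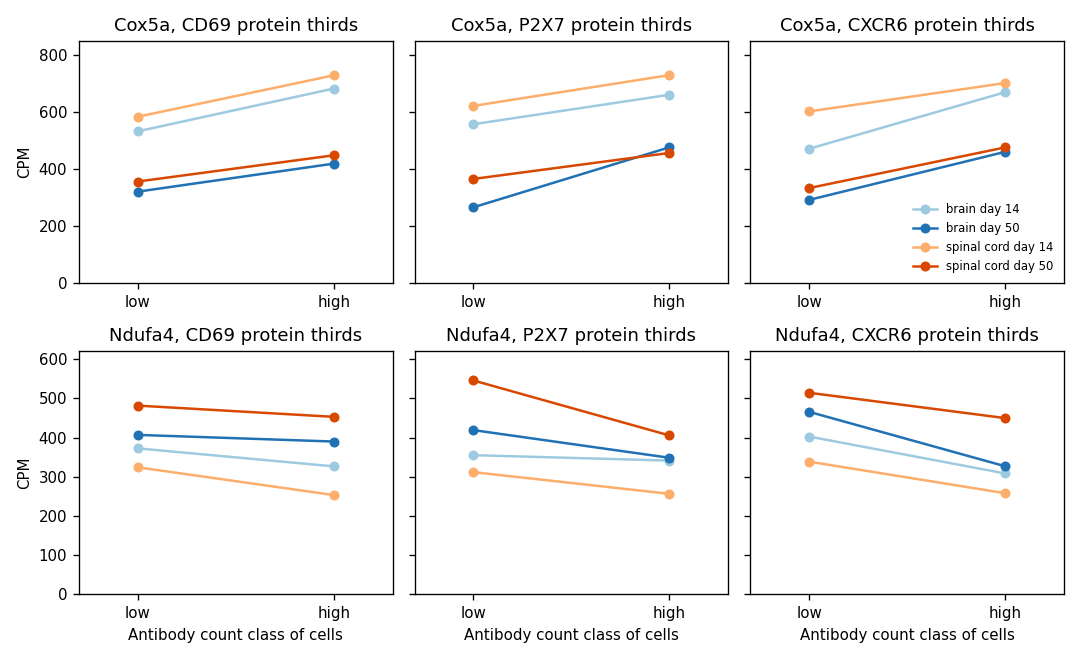
CPM (y axis, from 0) of Cox5a (top) and Ndufa4 (bottom) in cells with low and high antibody counts for CD69, P2X7 and CXCR6, 1 line per library. Cox5a lines rise from low to high and Ndufa4 lines fall in all 4 libraries, while the day 50 lines lie below the day 14 lines of their tissue for Cox5a and above them for Ndufa4.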

How the data were processed

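The series holds single-cell RNA and antibody counts from 4 samples of sorted T cells, 1 library per tissue and day. The authors deposited raw UMI counts per feature and cell barcode, made with Cell Ranger 6.1.1 on build mm10 per the submitters' processing notes, and nothing in the sources used here says how reads shared with near-identical gene copies were handled. Cells with 500 or more genes and at most 10% mt- UMIs were kept, and no doublet caller was run. UMIs were summed per library and scaled to CPM over all RNA features, with exact Poisson 95% intervals. Ratios between libraries carry exact conditional binomial 95% intervals, were computed for features with 10 or more UMIs, and a call needs 1.5-fold and an interval that excludes no difference. These intervals cover counting error only, and nothing says that libraries are separate animals.

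Classes of cells were summed per library and tested with edgeR 4.0.16 in R 4.3.3 (quasi-likelihood, TMM, filterByExpr, library as block, Benjamini-Hochberg over all genes, threshold 0.05), with DESeq2 1.42.0 as an alternative. The library pairs high and low sums because both come from the same library, so the block stands in the design. A test of the day over the 4 library sums, with tissue as block, used the same edgeR steps and was added after seeing the data. Nothing says whether brain and spinal cord libraries of a day share animals. P-values set a class or day difference against a spread across the blocks that is shared over genes, and that spread may be technical. In the day test, with 1 residual degree of freedom, they do not measure how evenly a single gene repeats in the 2 tissues. There mt-Nd6, with ratios of 0.53 in brain and -0.93 in spinal cord, had an SE of 0.22, much like mt-Nd4l (0.22) with 0.81 and 0.19. Antibody identity was taken from the feature identifiers, since the feature names read differently. The scripts were tested on simulated data. Gene coordinates and promoters are from RefSeq GRCm38.p6. Python 3.11.15, numpy 2.4.6, scipy 1.17.1 and pandas 2.3.3 did the sums.

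The members and all gene lists were chosen with earlier results of these data known. Named genes are the members called in each comparison (up to 10), the highest and lowest ratio of each complex at 50 CPM or more, the 4 SDH subunits, the isoform groups, the 3 most abundant members of each complex and the 13 mt- genes. Ndufb4, Cox5b, Atp5b, Uqcrb, the genes of the class tests beyond the first 10 and the genes named from other lists were chosen after their values were seen.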

Additional observations from a re-analysis of the deposited data

Results flagged for a closer look

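Between day 14 and day 50, 3 genes of the chain had intervals on opposite sides of 0 in the 2 tissues. Cox8a had a log2 ratio of -0.11 in brain and 0.0876 in spinal cord, and Ndufb11, an X-linked accessory subunit of complex I, had -0.28 in brain and 0.14 in spinal cord. mt-Nd6 had 0.53 in brain and -0.93 in spinal cord. With 1 library per group the difference between tissues was not tested, and none of the nuclear ratios reached 1.5-fold.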

How the results depend on the processing

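The summed nuclear level at day 50 over day 14 changed sign with the processing. In brain it was 0.11 with median-of-ratios scaling, 0.0206 with ribosomal and mt- genes left out of the total and 0.0004 with cells thinned to 2000 UMIs. In spinal cord it was 0.17, 0.11 and 0.0025 in that order. For spinal cord over brain the same 3 settings gave -0.12, -0.0812 and -0.0019 at day 14, and the first 2 gave -0.0609 and 0.0131 at day 50. At day 14 it was also -0.0035 without cells above the 98th percentile of UMIs and 0.0087 without cells of the proliferation class. The summed mt- level kept its sign under the settings that follow, though relative to the median of all features it was 0.0268 in spinal cord at day 50 over day 14. In brain at day 50 over day 14 it was -0.17, -0.27 and -0.35 under the 3 settings, -0.30 with an mt- limit of 5% and -0.34 without cells of the proliferation class. In spinal cord it was -0.11, -0.17 and -0.32, and -0.31 with no mt- limit. For spinal cord over brain at day 14 it was -0.21, -0.17 and -0.12, then -0.0553 with the 5% limit, -0.11 with no limit, -0.11 without the deepest cells and -0.11 without cells of the proliferation class. At day 50 it was -0.15 and -0.0738 under the first 2 settings and -0.0696 with the 5% limit.

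The count of members called with a fold limit lowered to a 25% difference was 37 and 20 for the days in brain and spinal cord, and 6 and 10 for the tissues at day 14 and day 50, against 16.3%, 44.5%, 36.8% and 10.2% of all features at that limit. Thinned cells gave 2 calls in each tissue comparison, and leaving out cells of the proliferation class gave 0 at day 14. Under median-of-ratios scaling the split of calls was 12 higher and 0 lower in brain and 6 higher and 2 lower in spinal cord. The median ratio of members turned to 0.0176 in brain and 0.10 in spinal cord with that scaling, to 0.0386 in spinal cord without ribosomal and mt- genes, and at day 14 to 0.0086 with thinned cells and 0.0149 without the proliferation class. With Ndufa4 counted in complex IV, the median of that complex turned to 0.0169 in brain and 0.0067 at day 50 between tissues.

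With no replicate block, edgeR gave 0 calls among members in each of the 4 class comparisons, against 14, 1, 10 and 57 with the pairing by library, and 5, 0, 2 and 21 members at an unadjusted p under 0.05 for CD69, P2X7, CXCR6 and proliferation. Tertiles within quintiles of UMIs gave 9 calls for CD69 and 5 for CXCR6. P2X7 gave 0 calls with DESeq2, 2 with no filter and 0 with thinned cells. Leaving out each library gave 5 to 22 calls for CD69, 0 to 5 for P2X7 and 1 to 8 for CXCR6. The proliferation test has 2 libraries, so leaving one out was not run. The day test with tissue as a block, added after seeing the data, gave 10 calls among members, 10 with RLE size factors, 4 with DESeq2 and 5 with no replicate block. The cause of these shifts was not tested. Of the single genes and medians under other settings, 728 kept their result, 273 no longer passed, 1 moved and 7 changed sign. The headline results were less stable: 76 stayed the same, 52 moved and 7 reversed. The 348 cells of brain at day 50 limit what can be seen there.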
